A study of Mus musculus with 96 samples.

Results

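The 8 genes described here control entry into and passage through the cell cycle: Wee1, Cdkn1a, Cdkn1b, Ccnd1, Gadd45a, Gadd45b, Gadd45g and Mdm2. They were chosen by name and found by symbol among 55421 rows of the count table, of which 35670 held any count; all 8 passed the filter on low counts, which left 18326 genes. RNA was read in 96 liver libraries from mice of 12 to 16 weeks every 4 h at 6 points of the day, given as zeitgeber time (ZT), which counts hours from lights on. In the Bmal1 line, knockout mice (KO, labelled Bmal1 KO) were set beside wild types (WT), and in the Cry line mice that lack both Cry1 and Cry2 (labelled Cry1/2 KO) were set beside their own WT. Each genotype was fed ad libitum (AL) or only at night (restricted feeding, RF), which makes 8 groups, each of 12 libraries and sampled by 2 at every time. The 2 libraries of a time belong to 2 numbered series of 6 libraries. The labels name no promoter, allele, strain or sex and do not say whether livers were pooled. They also do not say that the libraries of a group came from separate animals, so a p-value here reflects only how these libraries vary, which may be technical.

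A dividing cell passes a gate before DNA synthesis and another before mitosis. Cyclin D1 (Ccnd1) drives the first with CDK4 and CDK6, and p21 (Cdkn1a) and p27 (Cdkn1b) inhibit the cyclin-dependent kinases. WEE1 is the kinase that holds CDK1 inactive before mitosis. GADD45 proteins are small stress-induced factors that bind cell cycle and stress kinase proteins, and MDM2 is the ubiquitin ligase that keeps p53 low; Cdkn1a, Gadd45a and Mdm2 are textbook p53 targets. Most hepatocytes of an adult liver are at rest. BMAL1 activates the circadian clock through E-boxes and the CRY proteins repress it, and Wee1 is a textbook clock-controlled gene. Comparing both lines under both feeding regimens asks which levels and daily profiles depend on the clock genes and which on the time of food.

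Promoter windows of 250 bases before to 50 bases after the start site were taken from RefSeq (GRCm38.p6), which gave 7 windows for 6 members: Cdkn1a, with 2 start sites, Cdkn1b, Gadd45a, Gadd45b, Gadd45g and Mdm2. They were searched on both strands for the E-box CACGTG, the ROR response element and a 10-base p53 motif, and no match of 1 motif overlapped another. The p53 motif here is 1 of the 2 units of a full p53 site, which was not searched for. The E-box was present in 7.15% of 32851 RefSeq windows and in those of Gadd45b and Gadd45g. The p53 motif was present in 8.36% of windows and in those of Gadd45a, Mdm2 and the upstream start of Cdkn1a, and the ROR element in 0.384% and in none of the 7. A match is a description of letters and not a bound site. The windows of Cdkn1a at chr17:29090729-29091028 and Gadd45a at chr6:67037358-67037657, whose levels moved with genotype, and of Gadd45g at chr13:51846425-51846724, whose level did not pass the test, are shown 5′ to 3′ on the gene's strand (plus, minus and plus) with matches in capitals.
Cdkn1a, p53 motifs beginning at -73 and -51 from the start site: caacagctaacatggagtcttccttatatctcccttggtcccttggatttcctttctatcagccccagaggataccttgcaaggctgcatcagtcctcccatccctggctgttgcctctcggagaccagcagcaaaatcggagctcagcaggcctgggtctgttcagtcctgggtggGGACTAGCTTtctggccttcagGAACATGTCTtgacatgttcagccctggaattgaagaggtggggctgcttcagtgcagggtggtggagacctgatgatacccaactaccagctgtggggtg
Gadd45a, p53 motif beginning at -40: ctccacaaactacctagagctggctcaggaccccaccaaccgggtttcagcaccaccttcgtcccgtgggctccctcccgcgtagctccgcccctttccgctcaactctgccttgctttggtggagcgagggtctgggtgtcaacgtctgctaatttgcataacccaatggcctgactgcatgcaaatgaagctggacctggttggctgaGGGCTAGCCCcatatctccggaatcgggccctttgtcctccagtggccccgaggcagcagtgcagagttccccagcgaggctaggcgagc
Gadd45g, E-box beginning at -142: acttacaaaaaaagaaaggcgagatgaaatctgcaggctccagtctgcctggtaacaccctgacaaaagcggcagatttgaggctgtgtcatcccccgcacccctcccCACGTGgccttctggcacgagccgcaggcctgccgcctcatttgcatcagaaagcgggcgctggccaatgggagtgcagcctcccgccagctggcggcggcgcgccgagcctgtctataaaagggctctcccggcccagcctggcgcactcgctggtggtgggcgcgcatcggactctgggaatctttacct

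Total counts ran from 1478963 to 35568856 with a median of 25422366, and the 5 shallowest held 4883930 or fewer. Levels are in CPM (read counts scaled to the library total with TMM factors) and are not divided by gene length unless stated. Counts of the targeted genes are summed over the whole gene and did not fall to 0 in the knockouts, so the genotype labels could be checked only in part. Cry1 had a median of 7.67 CPM in Cry KO AL against 20.8 in Cry WT AL, Cry2 had 24.01 against 37.1, and Arntl (Bmal1) lay between 9.79 and 15.03 CPM in Bmal1 KO AL against 0.271 to 35.5 in Bmal1 WT AL. The hepatocyte marker Alb had a median of 60880 CPM over all libraries, so the labelled tissue matched its defining marker, while pancreatic Ctrb1 was at 0 in 70 of 96. Libraries with an acute phase, interferon or pancreatic signal (Saa1 over 5000, Isg15 over 50 or Ctrb1 over 40 CPM) numbered 7. In bulk RNA, fewer cells of a type and less RNA per cell cannot be told apart.

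Cdkn1a (ENSMUSG00000023067, chromosome 17, 29090976 to 29100727, mm10) moved in opposite directions in the 2 lines. Its level was 7.34 ± 6.45 CPM in Bmal1 WT AL (SD, n = 12; lowest 0.652, median 4.50, highest 19.2) and 32.1 ± 12.2 in Bmal1 KO AL (5.68, 31.4 and 47.1). Under RF it was 5.42 ± 5.09 in Bmal1 WT (0.850, 3.25 and 14.9) and 41.3 ± 41.7 in Bmal1 KO (8.18, 32.9 and 168). In the Cry line it was 7.94 ± 6.29 in WT AL (0.970, 6.73 and 18.5) and 1.10 ± 0.551 in KO AL (0.416, 1.11 and 2.00). Under RF the Cry WT level was 8.45 ± 5.86 (0.782, 9.32 and 18.1) and the Cry KO level 2.15 ± 1.82 (0.644, 1.40 and 6.40). Over all 12 libraries the ranges of KO and WT overlapped in all 4 comparisons. Within a time, both Bmal1 KO libraries lay above both WT libraries at 6 of 6 times under AL and under RF, and both Cry KO libraries lay below both WT libraries at 5 of 6 times under AL and 4 of 6 under RF. At the sixth time under AL, ZT8, the Cry KO libraries (1.85 and 2.00 CPM) lay above the WT libraries (0.970 and 1.75), and at ZT4 and ZT8 under RF the pairs overlapped.

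Averaged over the 6 times, the log2 fold change of Cdkn1a in Bmal1 KO AL was 2.62 ± 0.27, or 6.16-fold (SE, edgeR quasi-likelihood test, Benjamini-Hochberg (BH) adjusted p = 2.63e-11). Under RF it was 3.30 ± 0.28 (adjusted p = 3.31e-14). These values average log2 changes and are not ratios of mean CPM, which was 32.1 in KO and 7.34 in WT under AL. In Cry KO the log2 level of Cdkn1a fell by 2.49 ± 0.31 under AL (adjusted p = 2.85e-08) and by 1.75 ± 0.30 under RF (adjusted p = 4.58e-05). The Cry KO effect minus the Bmal1 KO effect was -5.12 ± 0.41 under AL (adjusted p = 8.61e-15) and -5.05 ± 0.41 under RF (adjusted p = 9.61e-15). The Bmal1 KO calls held under every alternative run, and without the ZT12 library of series 4 that held 168 CPM the RF change was 2.93 (adjusted p = 7.80e-14). The Cry KO call held under every alternative under AL, while the one under RF did not pass in limma-voom with the series as a random effect (-1.84, adjusted p = 0.396).

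The Bmal1 KO increase in Cdkn1a was largest in the middle of the day-night cycle, where WT was lowest. At ZT12 under AL the Bmal1 WT libraries had 1.17 and 1.31 CPM and the KO libraries 45.4 and 47.1, a log2 fold change of 5.20 ± 0.76 (adjusted p = 2.59e-06). At ZT8 under RF the WT libraries had 0.850 and 0.955 CPM and the KO libraries 32.8 and 54.4, a change of 5.59 ± 0.76 (adjusted p = 8.51e-07). No pair overlapped at either time. The Bmal1 KO effect passed the test at ZT8, ZT12 and ZT16 under both regimens. The Cry KO effect passed at ZT0, ZT4 and ZT20 under AL, when WT was high, and at ZT0 and ZT16 under RF. At ZT20 under AL the Cry WT libraries had 14.7 and 18.5 CPM and the Cry KO libraries 0.416 and 0.526, a change of -5.003 ± 0.92 (adjusted p = 0.00121). Over the 8 genes, tests within single times called 9 of 48 for Bmal1 KO AL, 5 for Bmal1 KO RF, 5 for Cry KO AL and 4 for Cry KO RF; of all genes and times, 2.21%, 2.47%, 0.653% and 0.648% were called. A single time rests on 2 against 2 libraries, and 15 of these 23 calls were lost without 1 or more of the series, each keeping its direction. The calls of Cdkn1a in Bmal1 KO at ZT8 and ZT12 held under every alternative run, while that at ZT16 was lost under AL without KO series 1 (2.01, adjusted p = 0.168), KO series 8 (2.46, 0.0753) or WT series 1 (1.56, 0.4999) and under RF without WT series 2 (3.58, 0.0513). The 5 Cry KO calls of Cdkn1a were each lost without 1 or more series (adjusted p from 0.0549 to 0.316), that at ZT20 under AL without KO series 1 (-5.29, 0.0598).

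**Figure D1:**
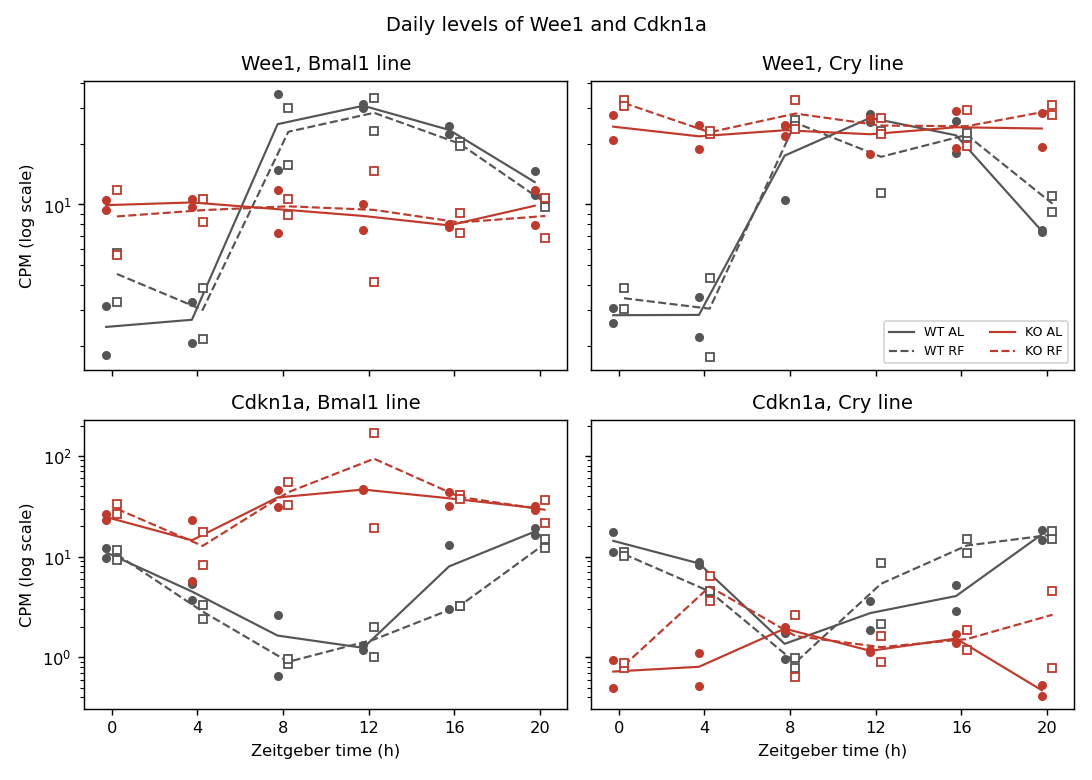
Levels of Wee1 and Cdkn1a in CPM on a log axis against zeitgeber time in hours, in the Bmal1 line (left) and the Cry line (right); points are libraries, lines join the means of 2 libraries, grey is WT, red KO, filled circles and full lines AL, open squares and dashed lines RF. WT Wee1 rises from about 2.48 CPM at ZT0 to 30.7 at ZT12 in Bmal1 WT AL while both knockouts show no such swing, lying between the WT trough and peak without Bmal1 and near the WT peak without Cry1 and Cry2, and Cdkn1a is above WT in Bmal1 KO at every time.

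Wee1 (ENSMUSG00000031016, chromosome 7, 110122046 to 110143286) had a higher mean level without the CRY proteins. Without BMAL1 no change passed the test when the log2 changes were averaged over the times. The level was 13.2 ± 10.4 CPM in Cry WT AL (SD, n = 12; lowest 2.20, median 9.03, highest 28.1) and 23.2 ± 4.13 in Cry KO AL (17.7, 23.2 and 29.1). Under RF it was 13.5 ± 9.40 in Cry WT (1.77, 11.2 and 26.2) and 26.8 ± 4.56 in Cry KO (19.4, 27.2 and 32.8). All KO libraries lay above the median of WT under the same regimen, and the highest lay above the WT range. The log2 fold change was 1.34 ± 0.17 under AL (edgeR, adjusted p = 4.51e-08) and 1.41 ± 0.18 under RF (adjusted p = 2.88e-08). At ZT0 under AL the Cry WT libraries had 2.59 and 3.08 CPM against 20.8 and 27.6 in KO, a change of 3.09 ± 0.45 (adjusted p = 7.63e-06). At ZT0 under RF the WT had 3.03 and 3.85 CPM and the KO 30.7 and 32.8, a change of 3.25 ± 0.48 (adjusted p = 7.74e-06). The Cry KO effect passed at ZT0 and ZT4 under both regimens and at no later time, and these 4 calls held under every alternative run. At ZT20 the change was 1.72 ± 0.43 under AL (adjusted p = 0.0550) and 1.53 ± 0.41 under RF (adjusted p = 0.108). The ZT20 libraries had 7.28 and 7.51 CPM in WT against 19.15 and 28.3 in KO under AL. Under RF they had 9.15 and 11.03 in WT against 27.55 and 30.9 in KO. Within Cry KO AL, the 6 libraries of series 1 (24.6 to 29.1 CPM) all lay above the 6 of series 2 (17.7 to 21.8).

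In Bmal1 KO, Wee1 lay between the peak and the trough of WT. Its level was 16.2 ± 12.3 CPM in Bmal1 WT AL (SD, n = 12; 1.81, 14.7 and 35.1) and 9.36 ± 1.65 in Bmal1 KO AL (7.20, 9.57 and 11.8). Under RF the level was 14.8 ± 10.7 in WT (2.17, 13.2 and 33.7) and 9.04 ± 2.89 in KO (4.16, 8.98 and 14.7). The mean CPM was thus lower in KO under both regimens, and this difference in CPM was not tested. The test below averages the log2 changes within each time. Averaged over the day the log2 fold change was -0.21 ± 0.17 under AL (adjusted p = 0.432) and -0.27 ± 0.17 under RF (adjusted p = 0.314), and without KO series 2 the RF change passed, at -0.61 (adjusted p = 0.0235). Under AL the single-time effects had both signs: 1.98 ± 0.44 at ZT0 (adjusted p = 0.0117) and 1.90 ± 0.45 at ZT4 (adjusted p = 0.0218), then -1.81 ± 0.42 at ZT12 (adjusted p = 0.00388) and -1.57 ± 0.42 at ZT16 (adjusted p = 0.0216). At ZT12 under AL the WT libraries had 30.0 and 31.5 CPM and the KO libraries 7.44 and 10.1. Each of these 4 calls was lost without 1 or more of the 4 Bmal1 AL series, with the same sign (adjusted p from 0.0595 to 0.483). Under RF only ZT12 passed, at -1.59 ± 0.41 (adjusted p = 0.0109), where the KO libraries had 4.16 and 14.7 CPM; without the lower one the change was -0.96 (adjusted p = 0.465), and without WT series 4 it was -1.29 (0.178). At ZT4 under RF the change was 1.67 ± 0.45 (adjusted p = 0.0509), and without the libraries that stood apart both ZT4 (1.63, 0.0360) and ZT16 (-1.31, 0.0444) passed. The Cry KO effect on Wee1 exceeded the Bmal1 KO effect by 1.55 ± 0.24 under AL (adjusted p = 1.44e-06) and by 1.68 ± 0.25 under RF (adjusted p = 5.11e-07). Wee1 lies 3.06 Mb from Arntl on chromosome 7, and the labels do not give the strain of the sequence that flanks the targeted allele.

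Daily rhythms were read from a 24 h cosine fitted in each group, and a rhythm was called with an adjusted p under 0.05 and a peak-to-trough range of at least 0.5 on the log2 scale. Wee1 and Cdkn1a were rhythmic in all 4 WT groups, with Cdkn1a peaking later than Wee1. The range of Wee1 was 3.83 ± 0.48 (SE) in Bmal1 WT AL, 3.10 ± 0.45 in Bmal1 WT RF, 3.65 ± 0.45 in Cry WT AL and 3.10 ± 0.49 in Cry WT RF (adjusted p between 3.32e-08 and 1.21e-05), with fitted peaks from ZT12.8 to ZT13.1. The range of Cdkn1a was 3.78 ± 0.61, 3.91 ± 0.60, 3.37 ± 0.57 and 3.28 ± 0.60 in the same order (adjusted p between 8.06e-06 and 0.000162), with peaks from ZT19.6 to ZT22.5. Without series 9 the call in Cry WT RF was lost (2.83, adjusted p = 0.0727), and the other 7 held under every alternative run. Gadd45a was also rhythmic in Bmal1 WT AL, with a range of 1.81 ± 0.47, a peak at ZT11.6 and an adjusted p of 0.0221, and in no other group. This call was lost without either of its series (adjusted p = 0.346 and 0.232). It was also lost in a model with a mean per time in place of the cosine (1.63, adjusted p = 0.0518). In all, 3 of 8 genes were called in Bmal1 WT AL (7.98% of all genes), 2 in Bmal1 WT RF (10.7%), 2 in Cry WT AL (5.74%) and 2 in Cry WT RF (15.8%).

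In the knockouts 1 rhythm was called. Cdkn1a in Bmal1 KO RF had a range of 1.85 ± 0.51 and a peak at ZT13.1 (adjusted p = 0.0418), when WT is near its trough; 4.94% of all genes were called in that group. It rested on 1 library: without the ZT12 library of series 4 the range was 0.77 (adjusted p = 0.775), and without the whole of series 4 it was 1.11 (adjusted p = 0.975). RLE scaling gave an adjusted p of 0.0541, and leaving out the libraries that stood apart gave 0.0720. None of the 8 was called in Bmal1 KO AL (0.273% of all genes), Cry KO AL (0.0109%) or Cry KO RF (5.97%) by edgeR, and at an unadjusted p under 0.05 the counts were 0, 0 and 1, the last being Gadd45a (range 1.48 ± 0.53, adjusted p = 0.163). The fitted range of Wee1 was 0.32 in Bmal1 KO AL, 0.18 in Bmal1 KO RF, 0.13 in Cry KO AL and 0.27 in Cry KO RF. The cosine terms of Wee1 differed between KO and WT in all 4 settings, with adjusted p of 5.27e-05 (Bmal1 AL), 0.00404 (Bmal1 RF), 0.000239 (Cry AL) and 0.00204 (Cry RF). Those of Cdkn1a differed in Bmal1 AL (adjusted p = 0.00141), Bmal1 RF (2.50e-05) and Cry AL (0.00547), and gave 0.0784 in Cry RF, where a model with a mean per time called it (adjusted p = 0.0276). These calls cover 2 of 8 genes in each of the first 3 settings and 1 in the fourth, where 0.611%, 1.06%, 0.677% and 2.16% of all genes were called. Of the 7, those of Wee1 under AL held under every alternative run; the others were lost without 1 or more series, at adjusted p of 0.0581 to 0.325.

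Ccnd1 (ENSMUSG00000070348, chromosome 7, 144929931 to 144939925, minus strand), the cyclin of the first gate, fell in both knockouts under AL and in Bmal1 KO under RF. The level was 20.4 ± 5.07 CPM in Bmal1 WT AL (SD, n = 12; lowest 12.7, median 20.7, highest 28.4) and 12.3 ± 3.60 in Bmal1 KO AL (6.65, 11.6 and 17.8). Under RF it was 17.7 ± 6.02 in Bmal1 WT (10.9, 16.8 and 31.2) and 9.88 ± 4.39 in Bmal1 KO (1.84, 11.0 and 17.1). The groups overlapped, with both KO libraries below both WT libraries at 4 of 6 times under either regimen. The log2 fold change was -0.73 ± 0.21 under AL (edgeR, adjusted p = 0.0103) and -0.86 ± 0.22 under RF (adjusted p = 0.00288). In the Cry line the level was 22.0 ± 4.65 in WT AL (12.2, 22.2 and 30.6) and 11.7 ± 5.87 in KO AL (4.996, 10.9 and 23.95), a change of -0.91 ± 0.22 (adjusted p = 0.00128). Under RF it was 13.9 ± 4.64 in Cry WT and 9.48 ± 3.33 in Cry KO, a change of -0.58 ± 0.23 that did not pass (adjusted p = 0.155). The difference between the lines was -0.18 ± 0.30 under AL (adjusted p = 0.707; -0.78 and 0.0482 without Cry KO AL series 1) and 0.28 ± 0.32 under RF (adjusted p = 0.671). Exons of Ccnd1 share 1100 bases with LTO1 on the other strand, and the strand setting of the counting is not given in the sources used here, so reads of the pair may not be told apart. The call was lost in Bmal1 AL without KO series 8 (-0.57, adjusted p = 0.166) or WT series 1 (-0.64, 0.117), in Bmal1 RF without KO series 4 (-0.62, 0.0883) and in Cry AL without KO series 2 (-0.59, 0.204) or WT series 4 (-0.72, 0.0524). Limma-voom with the series as a random effect called Ccnd1 in neither line under AL (adjusted p = 0.132 and 0.0540).

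Cdkn1b (ENSMUSG00000003031, chromosome 6, 134920401 to 134925513), the p27 gene, differed little between groups. Group means ran from 20.7 ± 4.37 CPM in Cry KO AL to 27.2 ± 4.48 in Cry WT RF (SD, n = 12). None of its 4 knockout effects passed, with log2 fold changes from -0.21 to -0.01. Restricted feeding raised it in Bmal1 WT, from 21.5 ± 2.55 CPM (lowest 17.4, median 21.5, highest 26.3) to 26.6 ± 4.21 (20.3, 27.4 and 32.4), a log2 fold change of 0.31 ± 0.10 (edgeR, adjusted p = 0.0264). These groups overlapped. In the other 3 genotypes the feeding change of Cdkn1b was 0.19 ± 0.09 in Bmal1 KO, 0.16 ± 0.09 in Cry WT and 0.17 ± 0.10 in Cry KO, none of which passed. The call in Bmal1 WT was lost without WT AL series 1 (0.29, adjusted p = 0.171), without WT RF series 4 (0.12, adjusted p = 0.575) and in limma-voom (0.27, adjusted p = 0.309). Without series 1 of Cry KO AL, Cdkn1b passed as lower in Cry KO AL (-0.47, adjusted p = 0.000214) and as higher under RF in Cry KO (0.42, adjusted p = 0.00141).

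Gadd45a (ENSMUSG00000036390, chromosome 6, 67035096 to 67037457, minus strand) fell in Bmal1 KO under both regimens. The level was 2.82 ± 1.36 CPM in Bmal1 WT AL (SD, n = 12; lowest 0.859, median 2.52, highest 4.75) and 1.38 ± 0.596 in Bmal1 KO AL (0.797, 1.32 and 2.75). Under RF it was 2.32 ± 0.603 in WT (1.27, 2.31 and 3.36) and 1.15 ± 0.453 in KO (0.517, 0.996 and 1.84). The groups overlapped, and both KO libraries were below both WT libraries at 4 of 6 times under either regimen. The log2 fold change was -0.98 ± 0.21 under AL (edgeR, adjusted p = 0.000243) and -0.998 ± 0.21 under RF (adjusted p = 0.000287). At ZT12 under AL the WT libraries had 3.59 and 4.70 CPM and the KO libraries 0.797 and 1.33. The RF call was lost in limma-voom with the series as a random effect (-0.95, adjusted p = 0.0837). In the Cry line it was 2.77 ± 1.24 in WT AL and 2.63 ± 1.02 in KO AL, a change of -0.05 ± 0.20 (adjusted p = 0.893), and -0.14 ± 0.22 under RF (adjusted p = 0.843). The Cry KO effect exceeded the Bmal1 KO effect by 0.93 ± 0.29 under AL (adjusted p = 0.00976; 0.50 and 0.275 without Cry KO AL series 2, 0.86 and 0.169 in limma-voom) and by 0.85 ± 0.31 under RF, where it did not pass (adjusted p = 0.0590). The gene shares 337 exon bases with E230016M11Rik on the other strand. Total counts were 4907 for Gadd45a and 4468 for E230016M11Rik, and reads of the pair may not be told apart. Gadd45a counts ran from 0, in 1 Cry KO RF library that was the shallowest of the 96, to 153.

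Gadd45b (ENSMUSG00000015312) and Gadd45g (ENSMUSG00000021453) passed in no comparison of mean level in the main edgeR fit. Gadd45b was low everywhere, with group means from 0.591 ± 0.234 CPM in Bmal1 KO AL to 1.17 ± 1.18 in Bmal1 WT AL (SD, n = 12) and counts from 1 to 101. Its highest library, at 4.58 CPM, was in Bmal1 WT AL. Gadd45g varied widely between libraries of the same group. In Bmal1 KO RF it ran from 2.94 through a median of 6.12 to 74.3 CPM, and in Cry KO AL from 2.02 through 6.61 to 61.2. At ZT12 the Bmal1 KO RF libraries had 2.94 and 74.3 CPM, while the Cry WT RF libraries had 47.8 and 48.8. Its largest knockout effect was -1.25 ± 0.52 in Cry RF (edgeR, adjusted p = 0.176). Under RF the Cry KO effect on Gadd45g minus the Bmal1 KO effect was -1.83 ± 0.73 (edgeR, adjusted p = 0.0928). Library spread of this size gave standard errors of 0.50 to 0.52 on the 4 knockout effects, against 0.10 for Mdm2.

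Mdm2 (ENSMUSG00000020184, chromosome 10, 117688875 to 117710758, minus strand) was slightly lower in Cry KO AL. The level was 29.6 ± 3.11 CPM in Cry WT AL (SD, n = 12; lowest 24.02, median 30.3, highest 34.0) and 24.3 ± 3.98 in Cry KO AL (18.4, 23.9 and 30.3), a log2 fold change of -0.28 ± 0.10 (edgeR, adjusted p = 0.0316). The groups overlapped. Under RF the Cry KO change was -0.21 ± 0.10 (adjusted p = 0.283), and in Bmal1 KO it was 0.06 ± 0.10 under AL (adjusted p = 0.732) and -0.01 ± 0.10 under RF (adjusted p = 0.993). Mdm2 did not pass in the Bmal1 line, in which Cdkn1a rose. The part of p53 in the levels of Cdkn1a and Mdm2 was not tested. The call was lost without Cry KO AL series 2 (-0.25, adjusted p = 0.308), Cry WT AL series 2 (-0.30, 0.112) or Cry WT AL series 4 (-0.25, 0.1802), and the adjusted p was 0.0561 with the groups fitted alone, 0.0684 without the libraries that stood apart, 0.0698 without the 3 shallowest and 0.229 in limma-voom.

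**Figure D2:**
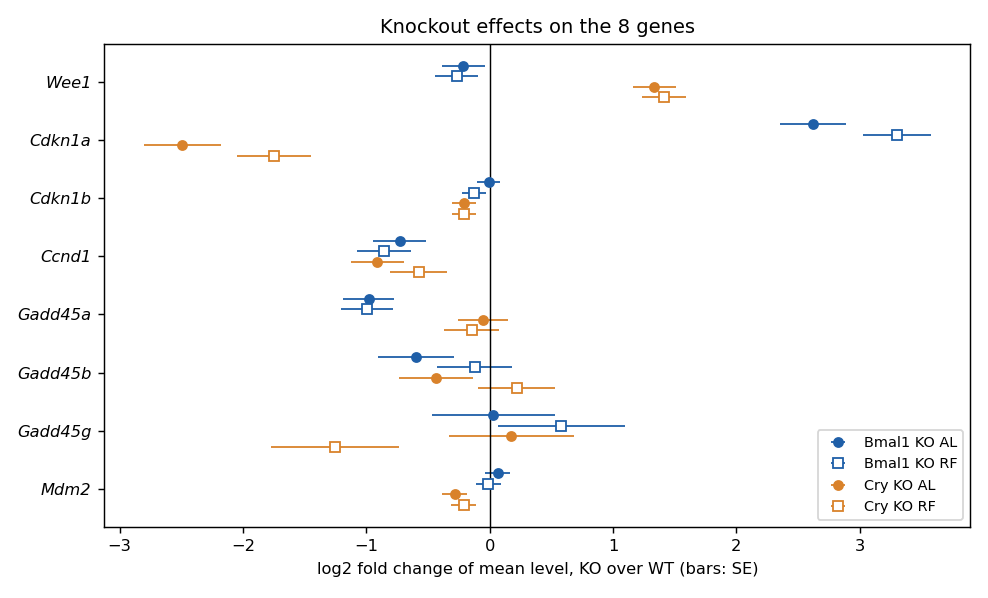
Log2 fold change of KO over WT within a time, averaged over 6 times, for each of the 8 genes. Bars are standard errors, blue is the Bmal1 line, orange the Cry line, filled circles AL and open squares RF. Cdkn1a lies at 2.62 and 3.30 in the Bmal1 line and at -2.49 and -1.75 in the Cry line, Ccnd1 is below 0 in all 4 comparisons, and Wee1 is above 0 in the Cry line.

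Over all 8 genes, the knockout effect on the mean level passed for 3 in Bmal1 KO AL, where 20.4% of all tested genes were called, for 3 in Bmal1 KO RF (18.4%), for 4 in Cry KO AL (27.4%) and for 2 in Cry KO RF (5.17%). Feeding passed for 1 gene in Bmal1 WT (13.9% of all genes), and for 0 in Bmal1 KO (0.638%), Cry WT (1.46%) and Cry KO (13.4%). At an unadjusted p under 0.05 the feeding counts were 2, 0, 1 and 1 in the same order, and DESeq2 called 2, 0, 1 and 1: Cdkn1b and Mdm2 (0.30, adjusted p = 0.0263) in Bmal1 WT, Ccnd1 in Cry WT (-0.71, 0.0399) and Cdkn1a in Cry KO (0.85, 0.0268). The difference of the knockout effect between regimens passed for 0 genes in the Bmal1 line, in which 0% of all genes were called, and for 0 in the Cry line (3.93%). The largest such difference of a called effect was that of Cdkn1a, 0.68 ± 0.37 in the Bmal1 line (adjusted p = 0.795) and 0.74 ± 0.44 in the Cry line (adjusted p = 0.345). At an unadjusted p under 0.05 it was 0 of 8 in both lines, and 0 by DESeq2; over all genes in the Bmal1 line 1154 had an unadjusted p under 0.05 and DESeq2 called 14. The knockout effects of the 2 lines differed for 3 genes under AL (34.5% of all genes) and 2 under RF (13%). Counts of the 8 genes at an unadjusted p under 0.05 were 4 and 4, and DESeq2 called 3 and 4. A difference between the WT of the 2 lines passed for 0 of the 8 genes under AL (17.7% of all genes) or RF (0.715%). At an unadjusted p under 0.05 the counts were 0 and 2, and DESeq2 called 0 and 0; without series 8 of Bmal1 WT AL, Mdm2 passed at 0.39 (adjusted p = 0.0255). A difference in rhythm between regimens passed for 0 genes in Bmal1 WT (0.0109% of all genes), Bmal1 KO (0%), Cry WT (0.0982%) or Cry KO (0%). At an unadjusted p under 0.05 the counts of the 8 genes were 0, 0, 1 and 1, and a model with a mean per time called 0 in each.

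**Figure D3:**
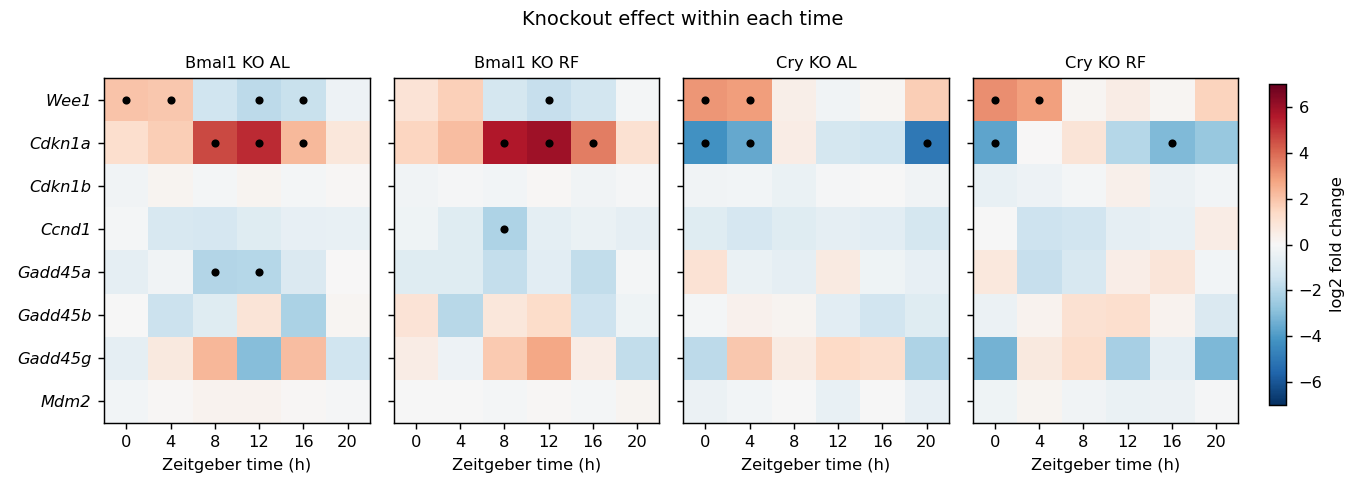
Log2 fold change of KO over WT within each zeitgeber time (columns, hours) for the 8 genes (rows) in the 4 comparisons; colour gives the change, blue below 0 and red above and a dot marks an adjusted p under 0.05. The dots of Cdkn1a fall at ZT8, ZT12 and ZT16 in Bmal1 KO, and those of Wee1 at ZT0 and ZT4 in Cry KO.

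The order of the group means showed few clear steps. For Cdkn1a it ran from Cry KO AL (1.10 CPM) and Cry KO RF through the 4 WT groups (5.42 to 8.45) to Bmal1 KO AL and Bmal1 KO RF (41.3), and 1 of 7 neighbouring pairs differed by more than the larger SD, namely Cry WT RF and Bmal1 KO AL. For Gadd45a the step lay between Bmal1 KO AL (1.38 CPM) and Bmal1 WT RF (2.32). For the other 6 genes no neighbouring pair was apart by more than the larger SD. This SD spans all times of a group, so it includes the daily swing, which was large for Wee1 and Cdkn1a in WT. Per length of exon, averaged over the 8 groups, Gadd45g had the highest level, 11.6 CPM per kb, followed by Mdm2 (5.54), Cdkn1b (5.20), Wee1 (4.61), Cdkn1a (3.72), Ccnd1 (3.11), Gadd45a (1.26) and Gadd45b (0.600).

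**Figure D4:**
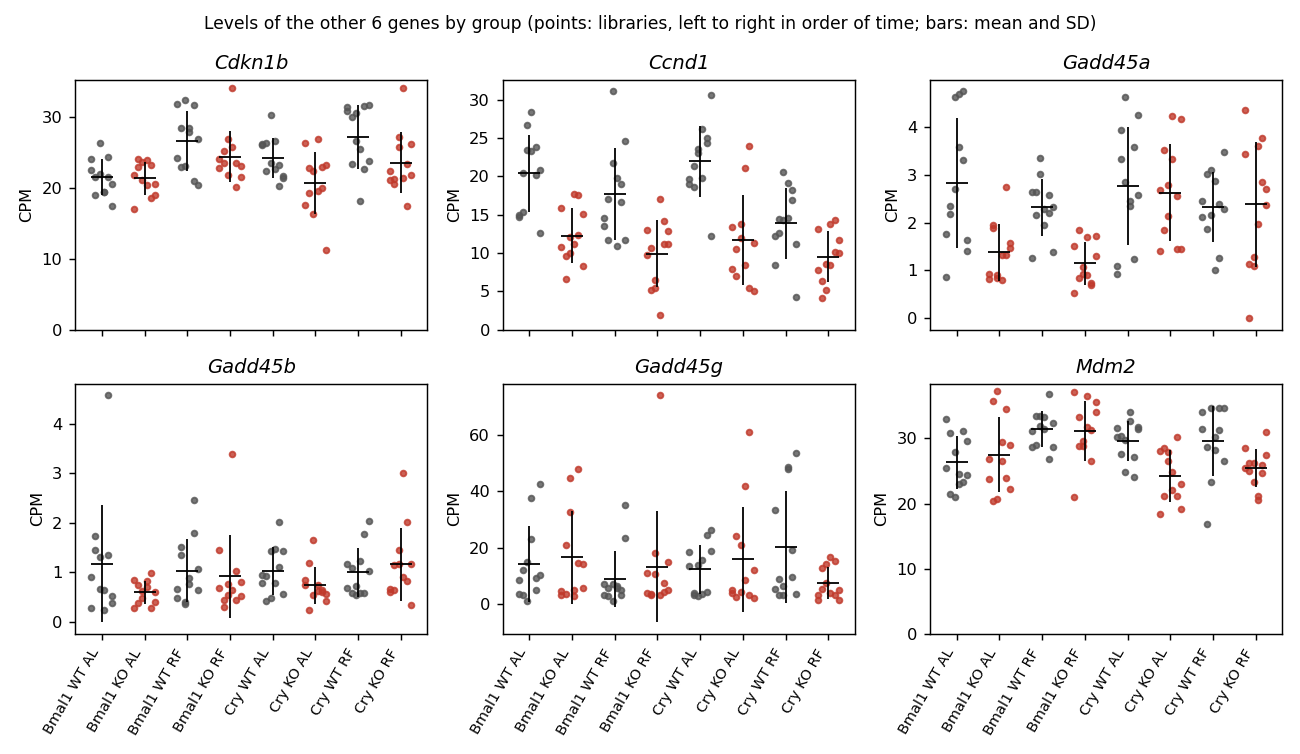
CPM of the 6 genes other than Wee1 and Cdkn1a in the 8 groups; each point is 1 library, placed left to right by zeitgeber time within its group, bars are mean and SD, grey is WT and red KO. Ccnd1 is lower in the red groups, Gadd45a is lower in both Bmal1 KO groups, and Gadd45g has single libraries up to 74.3 CPM.

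Other cell cycle genes moved in both directions. The shares of all tested genes that were higher and lower were 10.9% and 9.48% in Bmal1 KO AL, 10% and 8.35% in Bmal1 KO RF, 15.7% and 11.7% in Cry KO AL, and 2.67% and 2.49% in Cry KO RF, and the median log2 fold changes were 0.02, 0.02, -0.06 and -0.04. The counts of each list are to be read against these shares. Of 24 listed p53 targets other than the members, 6 rose and 2 fell in Bmal1 KO AL, with a median log2 fold change of 0.09 beside 0.02 over all genes; 4 rose and 4 fell in Bmal1 KO RF, 4 and 3 in Cry KO AL, and 1 and 0 in Cry KO RF. The list medians in the last 3 were 0.04, -0.11 and -0.07, and the 7 of 24 called in Cry KO AL stood beside 27.4% of all genes. Under both regimens in Bmal1 KO, Pvt1, a long noncoding RNA beside Myc, rose (1.22 ± 0.19 under AL) and Perp, an adhesion protein of epithelia, fell (-0.72 ± 0.11 under AL, edgeR adjusted p = 6.65e-07). In Cry KO AL the apoptosis effector Bax rose by 0.57 ± 0.12 and Mdm4, a relative of Mdm2 that binds p53, fell by 0.40 ± 0.11.

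Of 23 tested genes of the first gate (cyclins D and E, their kinases, CDK inhibitors, RB and E2F factors), the numbers higher and lower were 5 and 2 in Bmal1 KO AL, 6 and 1 in Bmal1 KO RF, 5 and 2 in Cry KO AL, and 2 and 1 in Cry KO RF, where 20.4%, 18.4%, 27.4% and 5.17% of all genes were called. The list medians were 0.07, 0.05, 0.01 and 0.02. Cdk6, a kinase partner of cyclin D, rose in Bmal1 KO (0.92 ± 0.10 under AL and 0.89 ± 0.10 under RF, edgeR adjusted p = 7.78e-10 and 1.89e-09) and fell in Cry KO AL (-0.45 ± 0.11, adjusted p = 0.00103). Ccne1, cyclin E1, had the reverse pattern, with -1.45 ± 0.27 in Bmal1 KO AL (adjusted p = 3.09e-05) against 1.76 ± 0.24 in Cry KO AL (adjusted p = 2.16e-07) and 1.63 ± 0.26 in Cry KO RF. Ccne2 rose in Bmal1 KO AL (0.95 ± 0.19), Bmal1 KO RF (0.93 ± 0.18) and Cry KO RF (0.86 ± 0.19).

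Of 18 genes of G2 and mitosis, 3 fell and 1 rose in Bmal1 KO AL, 1 fell and 3 rose in Bmal1 KO RF, 3 fell and 1 rose in Cry KO AL, and 0 passed in Cry KO RF; 4 of 18 is near the 20.4% and 18.4% of all genes called in Bmal1 KO and below the 27.4% in Cry KO AL. The list medians were -0.64, 0.14, -0.535 and -0.04. Cdc25b, a phosphatase that opposes WEE1, fell in Bmal1 KO by 1.17 ± 0.26 under AL (edgeR adjusted p = 0.000488) and by 1.03 ± 0.27 under RF (adjusted p = 0.0034). Most of these 18 genes were near the floor, with medians under 1 CPM over all libraries. Cdc25b was among them, with a median of 0.919 CPM and 3 libraries at 0. Of 16 replication genes, 5 rose and 2 fell in Bmal1 KO under each regimen, 3 fell and 1 rose in Cry KO AL, and 0 passed in Cry KO RF. The 4 of 16 in Cry KO AL is below the 27.4% of all genes called there, and the list medians were 0.20, 0.40, -0.415 and 0.02. The helicase subunits Mcm6 and Mcm2 rose in Bmal1 KO AL (1.02 ± 0.26 and 0.89 ± 0.21) and RF (1.16 ± 0.26 and 0.88 ± 0.21), and Rrm2, a subunit of ribonucleotide reductase, fell in Bmal1 KO AL by 1.35 ± 0.22. Summed over the list, the G2 and mitosis genes had group medians of 28.6 to 38.3 CPM, of which Ccnf, a cyclin F gene with a median of 17.01 CPM over all libraries, was the largest part. In Cry KO RF an unadjusted p under 0.05 was reached by 3 of the G2 and mitosis genes and 0 of the replication genes, and DESeq2 called 0 of either list.

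A further list of 12 genes held kinases and transcription factors of stress signalling, not all of them partners of GADD45. In Bmal1 KO, 1 rose and 3 fell under AL, and 1 rose and 4 fell under RF. In Cry KO, 2 rose and 2 fell under AL, and 1 rose and 0 fell under RF. Of all genes, 20.4%, 18.4%, 27.4% and 5.17% were called in the same order. The list medians were -0.06, -0.195, -0.05 and 0.01. Map2k6, a kinase of the p38 pathway, fell in Bmal1 KO by 0.57 ± 0.18 under AL (edgeR adjusted p = 0.0137) and by 0.54 ± 0.18 under RF, and rose in Cry KO by 0.53 ± 0.17 and 0.72 ± 0.18. Atf3, a stress transcription factor, fell in Bmal1 KO by 0.91 ± 0.28 under AL and by 1.06 ± 0.30 under RF.

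Markers of cell types were read in the same libraries. The summed level of 6 hepatocyte markers lay between 38890 and 60470 CPM in Bmal1 KO AL, below the 77270 to 132400 of Bmal1 WT AL, so the groups did not overlap. Alb makes up most of this sum and fell (-1.78, edgeR adjusted p = 3.26e-15), as did Ttr (-0.55, adjusted p = 0.00244), while the median change of the 6 was -0.11; under RF the ranges were 40520 to 61560 and 54740 to 101800, and 1 rose and 1 fell. In the Cry line they were 61590 to 132300 in KO AL against 59410 to 99070 in WT AL, and 85690 to 129000 in KO RF against 47010 to 110300 in WT RF, with 1 of 6 lower in each. The 5 cholangiocyte markers summed to 29.3 to 73.5 CPM in Bmal1 WT AL and 43.5 to 99.1 in KO AL, with 2 of 5 higher. Of the 6 Kupffer markers 1 fell in Bmal1 KO AL, and edgeR called 0 of the 6 endothelial markers there (1 at an unadjusted p under 0.05, 0 by DESeq2). The part of these shifts in the changes of Cdkn1a, Ccnd1 and Gadd45a in Bmal1 KO was not tested. In Cry KO AL 3 of 6 stellate markers fell, and of the 5 cholangiocyte markers 3 rose and 1, Sox9, fell (-1.18, edgeR adjusted p = 3.64e-06). In Cry KO RF 3 of 5 exocrine pancreas markers were called higher, where 5.17% of all genes were called. Their sums ran from 0.0793 through a median of 1.13 to 724 CPM against 0.0678 to 0.496 in Cry WT RF. Ctrb1 had 243 CPM at ZT4 and 43.1 at ZT8 in series 5 of Cry KO RF, and 48.85 at ZT8 in series 4 of Cry WT AL. Ctrb1, Prss2, Pnlip and Cpa1 were at 0 in 70, 77, 74 and 78 of 96 libraries. Without the 7 libraries that stood apart, the Cry KO RF changes were -1.67 for Cdkn1a (edgeR, adjusted p = 0.00137) and 1.38 for Wee1 (adjusted p = 9.36e-07).

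The genes most alike in pattern were taken as the 3 with the highest Pearson r of log2 CPM over the 48 means of group and time, among 12475 genes of at least 1 CPM; these are descriptions across cells that share libraries. For Wee1 they were Gm45819 (r = 0.964), Usp2 (0.961) and Tef (0.956). Gm45819 lies on the same strand at 110119990 to 110121740 on chromosome 7, and its end is 306 bases from the start of Wee1. Those of Cdkn1a included Cry1 (0.931), which is itself altered in the Cry line, and Ppard (0.899). For Gadd45g they were Myc (0.803), Gm16348 (0.716) and Cish (0.666). The highest r was 0.797 for Cdkn1b (Acap2), 0.792 for Ccnd1 (Klhdc7a), 0.768 for Mdm2 (Nudt12), 0.704 for Gadd45a (Gjb2) and 0.627 for Gadd45b (Slc39a6). Between members, Wee1 and Cdkn1a had the lowest r, -0.58, and Ccnd1 and Gadd45a the highest, 0.49.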

How the data were processed

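Liver RNA was made into libraries with a stranded mRNA kit per the labels' protocols; the input was 250 ng of RNA, amplified over 11 PCR cycles. The deposited table holds raw counts per Ensembl gene, with no normalisation. The submitters' processing notes name STAR 2.4.0i and the build mm10; which program counted the reads, and whether by strand, is not given in the sources used here. Symbols came from GENCODE M21 and promoters from RefSeq. The members and gene lists were chosen with earlier results of these data known.

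The fits used edgeR 4.0.16 (R 4.3.3) on counts scaled by TMM. The filterByExpr filter (minimum count 10, minimum total 15, by group and time) kept 18326 of 35670 genes and 99.97% of counts. One quasi-likelihood fit of all 96 libraries held a mean for each of 48 combinations of group and time. Each log2 fold change of the mean level is the average of the log2 changes within the 6 times, with equal weight. It is not the log2 ratio of mean CPM. A second fit held a 24 h cosine per group. Both fits took the libraries of a series as independent, whereas limma-voom estimated a correlation of 0.219 within series. The standard errors and p-values of edgeR do not allow for it. Adjustment was by Benjamini-Hochberg over all genes within a comparison, two-sided, with calls under 0.05. The models were tested on simulated data. Genes named beside the members are, of each list, up to 4 called genes with the smallest p per comparison, and the 3 most alike in pattern, of which 1 is not reported here. Precision is judged from the spread between libraries, to which low counts, as for Gadd45b, add counting error. Alternatives were no filter, RLE size factors, genes averaging 1 CPM or more, groups fitted alone, DESeq2 1.42.0, limma-voom (limma 3.58.1) with the series as a random effect, a mean per time, no minimum range, a replicate block, and leaving out each series, the 3 shallowest libraries, the 7 that stood apart or, added after the data were seen, the library with the most Cdkn1a.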

Additional observations from a re-analysis of the deposited data

Results flagged for a closer look

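In 5 cases the knockout of Cry1 and Cry2 and the knockout of Bmal1 had different effects on the same gene, by a test of the difference itself (edgeR quasi-likelihood, Benjamini-Hochberg adjusted). For Cdkn1a the Cry KO effect minus the Bmal1 KO effect was -5.12 under AL (adjusted p = 8.61e-15) and -5.05 under RF (adjusted p = 9.61e-15), with opposite signs in the 2 lines. For Wee1 it was 1.55 under AL (adjusted p = 1.44e-06) and 1.68 under RF (adjusted p = 5.11e-07). For Gadd45a it was 0.93 under AL (adjusted p = 0.00976) and was lost without series 2 of Cry KO AL (0.50, adjusted p = 0.275) and in limma-voom with the series as a random effect (0.86, adjusted p = 0.169). The lines were not compared in the same animals, and each has its own WT.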

How the results depend on the processing

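Counts below are of the 8 genes over all comparisons of a kind. The 12 knockout effects on the mean level were 7 in limma-voom with the series as a random effect, ranged from 10 to 13 when 1 series was left out at a time and were 12 with DESeq2. The 1 feeding effect became 3 with the compared groups fitted alone, 2 with a mean of at least 1 CPM, 2 with RLE scaling, 4 with DESeq2, 8 with no filter on low counts and 0 in limma-voom; it was 2 without the Bmal1 KO RF library with the most Cdkn1a, an alternative chosen after seeing the data, and ran from 0 to 5 over the series left out. The 0 differences of the knockout effect between regimens became 3 with no filter and ran from 0 to 2 over the series left out, the 2 being Ccnd1 (0.93, adjusted p = 0.0307) and Gadd45g (-1.88, adjusted p = 0.0379) without Cry KO AL series 1. The 5 differences between the lines ran from 5 to 9 over the series left out, with 9 without Cry KO AL series 1, and were 4 in limma-voom and up to 7 elsewhere. The 0 differences between the WT of the lines became 3 with no filter and ran from 0 to 1 over the series left out. With no filter on low counts, the 23 calls at single times became 64, the 10 rhythms 25 and the 7 rhythm differences 18; over the series left out they ran from 16 to 27, 9 to 10 and 6 to 8. The cause was not tested. Of the 58 called values, 622 values under alternatives gave 543 that kept direction and call, 79 that kept direction only and 0 that changed sign. The ranges of the 10 called rhythms cannot be negative, so their values under alternatives could not change sign. Dropping the minimum range could only keep a called rhythm.

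Series numbers are shared between KO and WT in the Bmal1 line. The deviations of same-numbered libraries correlated between -0.0818 and 0.299 (median 0.116), with 7 of 12 correlations over 0.1. These values do not settle whether the numbers pair the samples, and the main fits did not pair them. The replicate block was 1 offset per regimen, so it does not pair libraries within a time. With a replicate block the knockout effects on the mean level again gave 12 calls, and the difference between regimens 0; Cdkn1a changed by 2.62 under AL and 3.28 under RF. No block could be fitted in the Cry line, whose KO and WT groups share at most 1 number. Leaving out a series leaves 1 library at each of its times, which is then taken to vary like the others. Counts below about 1 CPM, as for Gadd45b, limit what could be detected, and no protein or cell division was measured.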
